A study of Mus musculus with 6 samples.

Results

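The Abca5 to Abca9 cluster is a run of 5 neighbouring genes on mouse chromosome 11, Abca8b, Abca8a, Abca9, Abca6 and Abca5 in order of position, each coding for a lipid transporter of the ABCA subfamily. Members were taken by symbol from the table of raw counts, which held all 5 among 41388 genes, and all 5 passed the filter on low counts that left 15186 tested genes. The cluster was picked with its response to prostaglandin E2 (PGE2) already known, and Abca8a was among the strongest responders. Every PGE2 against vehicle value of a member below is therefore a description of these libraries and supports nothing by itself.

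Libraries came from primary fibro-adipogenic progenitors, muscle-resident mesenchymal cells able to become fibroblasts or fat cells, taken from male wild-type mice and grown in medium with 10% serum and added FGF. Cells in the PGE2 group received PGE2 at 500 nM on each of 2 consecutive days, and cells in the vehicle group received vehicle on the same schedule, with 3 libraries of polyadenylated RNA in each group. Whether libraries of a group stem from separate mice or cultures is not stated, so p-values measure only the spread between libraries, which may be technical. Vehicle libraries 1 to 3 held 41988251, 21006044 and 42708381 counts and PGE2 libraries 45811389, 52730962 and 38150216. All 14 listed markers of fibro-adipogenic progenitors averaged at least 1 CPM (counts per 1000000 counts of a library), and their sum was 9735 to 17781 CPM with vehicle and 9288 to 21488 CPM with PGE2. Most of that sum came from the collagen genes Col3a1 (means of 6479 CPM with vehicle and 7335 CPM with PGE2) and Col1a1 (3095 and 3524 CPM). The defining receptor Pdgfra stood at a mean of 1282 CPM with vehicle and 1288 CPM with PGE2, but single markers went both ways. Ly6a, Cd55 and Thy1 were higher in every PGE2 library, with log2 fold changes of 0.62, 0.62 and 0.73. Gsn (-0.45) and Col15a1 (-0.93) were lower in every PGE2 library, as were 12.2% of all tested genes. The share of tested genes higher in every PGE2 library is not at hand. By edgeR 0 of the 14 passed at an adjusted p under 0.05 (6 at an unadjusted p under 0.05), beside 0.342% of tested genes. DESeq2 called 5, beside 6.04% of all genes with an adjusted p. With the replicate number as a block 5 fell and 4 rose, where 14.4% of tested genes were called and 7.51% were called lower. Their part in the values of the cluster was not tested. In such bulk samples, fewer cells of one kind and less RNA per cell cannot be told apart.

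ABCA proteins are large membrane proteins that use ATP to move lipids across or out of membranes. Abca1, the best known of them, loads cellular cholesterol and phospholipid onto apolipoproteins, and liver X receptors switch it on when sterols build up. The genes of the Abca5 to Abca9 group arose by local duplication and are less well understood. In human heart and adipose tissue, ABCA6, ABCA8 and ABCA9 transcripts are typical of fibroblasts. Abca8a and Abca8b are the mouse counterparts of human ABCA8, which has been linked to HDL cholesterol in people. Abca5 sits in lysosomes and late endosomes. In human macrophages, ABCA6 and ABCA9 are turned down when cells are loaded with cholesterol.

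The cluster spans 406 kb of GRCm38, the assembly also called mm10, at chr11:109932190-110337716. All 5 genes lie on the minus strand. Abca8b occupies 109932190 to 109995845, Abca8a 110025634 to 110095978 and Abca9 110100749 to 110168196. Abca6 follows at 110176820 to 110251776 and Abca5 at 110269369 to 110337716. The genes are built alike: in the GENCODE annotation, the transcript with the longest coding sequence has 39 exons in each of them, and the coding sequence is 4860 bases in Abca8a and Abca8b, 4869 in Abca9, 4872 in Abca6 and 4926 in Abca5. The other annotated gene between the outer ends is Gm11697, an antisense RNA that crosses 3 annotated exons of Abca8b. It had 3 counts in vehicle library 1, 1 in PGE2 library 1 and 0 in the other libraries, against at least 139 for Abca8b in any library. No source used here gives the strand setting of the counting, so reads of the pair cannot be told apart.

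Close relatives can lose or trade reads when counted, so the members' sequences were compared. Abca8a and Abca8b were the closest pair, with 73.3% identity over 4816 aligned coding bases. Abca9 was 69.4% identical to Abca8a, Abca6 61.6% and Abca5 54.0%. The longest stretch that Abca8a and Abca8b share without a difference in the aligned coding sequences is 97 bases, at the junction of exons 15 and 16. It is shown here with 30 bases on each side, 5′ to 3′ on the coding strand, as GENCODE gives it. Within the coding sequence it is the place where reads of the pair are hardest to tell apart. Untranslated parts were not aligned. Capitals mark bases that differ from Abca8a at the same aligned position.
Abca8a: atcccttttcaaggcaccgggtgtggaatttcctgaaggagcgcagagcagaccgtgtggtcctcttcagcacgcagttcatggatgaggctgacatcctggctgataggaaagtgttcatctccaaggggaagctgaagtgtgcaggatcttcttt
Abca8b: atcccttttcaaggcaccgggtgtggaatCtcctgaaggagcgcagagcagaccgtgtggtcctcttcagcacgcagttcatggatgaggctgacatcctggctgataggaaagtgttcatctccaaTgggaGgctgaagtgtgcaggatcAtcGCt
Abca6: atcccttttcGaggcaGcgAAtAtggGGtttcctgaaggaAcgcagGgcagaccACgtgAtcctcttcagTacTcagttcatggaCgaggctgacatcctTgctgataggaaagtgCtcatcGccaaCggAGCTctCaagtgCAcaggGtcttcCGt
Abca9: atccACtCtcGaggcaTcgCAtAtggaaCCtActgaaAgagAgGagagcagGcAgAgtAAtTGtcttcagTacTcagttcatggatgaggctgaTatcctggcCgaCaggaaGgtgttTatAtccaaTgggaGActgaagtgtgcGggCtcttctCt
These 157 bases reach over an intron in each of these genes, and in Abca8a their ends lie at chr11:110068817-110069479 of GRCm38, minus strand. The ends lie at chr11:109964980-109966785 in Abca8b, chr11:110218250-110218967 in Abca6 and chr11:110144238-110144847 in Abca9, on the same strand. Abca8b differs from Abca8a at 6 of these bases, Abca6 at 29 and Abca9 at 35. The sequenced reads were 100 bases long, per the labels' protocols. Of all windows of 100 bases in the longest transcript of each member, 5520 in Abca8a and 7324 in Abca8b among them, 0 occurred in an annotated transcript of any other gene. An exactly matching read of that length from these longest transcripts therefore pointed to 1 annotated gene. Exons outside the longest transcripts, and sequence outside annotated transcripts, were not searched. No source used here names the aligner or its tolerance for mismatches.

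The stretch around the transcription start was compared next, because the levels of the members differed in the same direction. RefSeq promoters of GRCm38.p6, from 250 bases before the start to 50 after it, matched 4 members. They are printed 5′ to 3′ on the gene's strand, with capitals marking the E-box CACGTG, a palindrome bound by clock and lysosomal transcription factors.
Abca8b: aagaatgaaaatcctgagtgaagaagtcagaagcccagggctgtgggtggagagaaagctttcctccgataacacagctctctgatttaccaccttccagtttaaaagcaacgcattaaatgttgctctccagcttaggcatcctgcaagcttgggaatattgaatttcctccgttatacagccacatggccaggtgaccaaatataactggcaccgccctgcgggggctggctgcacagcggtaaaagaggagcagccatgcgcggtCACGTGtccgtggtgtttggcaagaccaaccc
Abca8a: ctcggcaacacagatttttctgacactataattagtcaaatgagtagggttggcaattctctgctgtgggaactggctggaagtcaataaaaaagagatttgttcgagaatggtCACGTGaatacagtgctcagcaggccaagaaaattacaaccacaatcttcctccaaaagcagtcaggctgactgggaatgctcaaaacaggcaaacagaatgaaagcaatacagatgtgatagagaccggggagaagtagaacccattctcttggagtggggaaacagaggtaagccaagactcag
Abca9: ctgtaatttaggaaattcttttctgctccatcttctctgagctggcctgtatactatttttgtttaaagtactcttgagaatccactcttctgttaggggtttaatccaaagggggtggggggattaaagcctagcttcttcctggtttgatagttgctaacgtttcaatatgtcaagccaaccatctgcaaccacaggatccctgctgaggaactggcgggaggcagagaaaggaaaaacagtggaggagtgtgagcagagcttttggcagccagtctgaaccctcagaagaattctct
Abca5: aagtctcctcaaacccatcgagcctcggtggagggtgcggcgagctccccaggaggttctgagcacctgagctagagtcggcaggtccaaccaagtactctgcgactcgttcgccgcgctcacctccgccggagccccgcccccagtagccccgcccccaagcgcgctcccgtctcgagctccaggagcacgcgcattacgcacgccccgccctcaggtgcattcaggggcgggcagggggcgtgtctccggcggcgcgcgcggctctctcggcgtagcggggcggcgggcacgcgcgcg
Their positions are chr11:109995796-109996095 for Abca8b, chr11:110095888-110096187 for Abca8a, chr11:110168104-110168403 for Abca9 and chr11:110337667-110337966 for Abca5, all on the minus strand. The Abca5 promoter stands apart in base composition: it is 72.3% G or C with 40 CpG pairs, above 93.9% of 27025 promoters in G and C and above 96.2% in CpG pairs. Abca8a has 44.3% and 4 CpG pairs, Abca9 45.3% and 2, and Abca8b 51.3% and 10, where the median promoter has 52.7% and 7. The E-box was found in Abca8a, where it begins 136 bases before the start, and in Abca8b, where it begins 18 bases after it. It occurs in 7.241% of promoters, and it was picked after the sequences had been read. With its flanks the box reads gaatggtCACGTGaatacag in Abca8a and gcgcggtCACGTGtccgtgg in Abca8b.

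Other motifs were searched on both strands of the same windows. These were the cyclic AMP response element TGACGTCA, present in 1.876% of promoters, and its core TGACG, which lies inside it, in 21.02%. The NR4A element AAAGGTCA is present in 1.458%, the AP-1 element TGANTCA in 7.933%, the TATA box TATAAA in 14.16% and the liver X receptor repeat, AGGTCA followed after 4 bases by AGGTCA, in 0.0111%. None of these motifs was found in the 4 windows.

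Abca8a, one of the mouse pair related to human ABCA8, differed most. It was at 23.8, 34.6 and 29.7 CPM in vehicle libraries 1 to 3 and at 9.15, 8.41 and 7.89 CPM in PGE2 libraries 1 to 3, where CPM are counts scaled to library size with TMM factors. The lowest vehicle library was 14.6 CPM above the highest PGE2 library. The means were 29.4 ± 5.43 and 8.48 ± 0.636 CPM (SD, n = 3 each), so PGE2 cells held 28.9% of the vehicle level. The log2 fold change, PGE2 over vehicle, was -1.79 ± 0.147 (standard error), and 0.0922% of tested genes had a lower one.

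Abca8b, its closest relative, had lower counts in each library, at 7.77, 11.2 and 7.37 CPM with vehicle and 4.48, 3.20 and 3.78 CPM with PGE2. Vehicle library 2 stood above the other vehicle libraries, and the groups did not overlap. Means were 8.77 ± 2.09 and 3.82 ± 0.641 CPM, with a log2 fold change of -1.19 ± 0.209.

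Abca9 was the most variable member. It was at 22.2, 36.9 and 34.4 CPM with vehicle and at 9.45, 13.5 and 17.2 CPM with PGE2. Library 1 was the lowest of its group both times, and within the PGE2 group the highest library was 1.82 times the lowest, against 1.16 times for Abca8a. The groups still did not overlap, with means of 31.2 ± 7.87 and 13.4 ± 3.87 CPM and a log2 fold change of -1.22 ± 0.270. Between libraries of the same number the log2 differences were -1.23, -1.45 and -1.0, although library 1 lay well below the others in level.

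Abca6 had the lowest counts of the cluster. Its libraries gave 6.28, 7.62 and 5.64 CPM with vehicle and 3.06, 2.75 and 2.83 CPM with PGE2, the last from 104 counts, the lowest count of any member. PGE2 libraries lay within 1.11 times of each other, and all were below the vehicle libraries. The log2 fold change was -1.17 ± 0.160, with means of 6.51 ± 1.01 and 2.88 ± 0.159 CPM.

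Abca5, the lysosomal member, differed least. It was at 22.3, 24.1 and 20.4 CPM with vehicle and at 16.5, 15.2 and 17.1 CPM with PGE2. The gap between the groups was 3.28 CPM, and PGE2 cells held 73.0% of the vehicle mean, against 28.9 to 44.2% for the other members. Its log2 fold change was -0.45 ± 0.095, from 22.3 ± 1.89 to 16.2 ± 0.947 CPM.

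**Figure D1:**
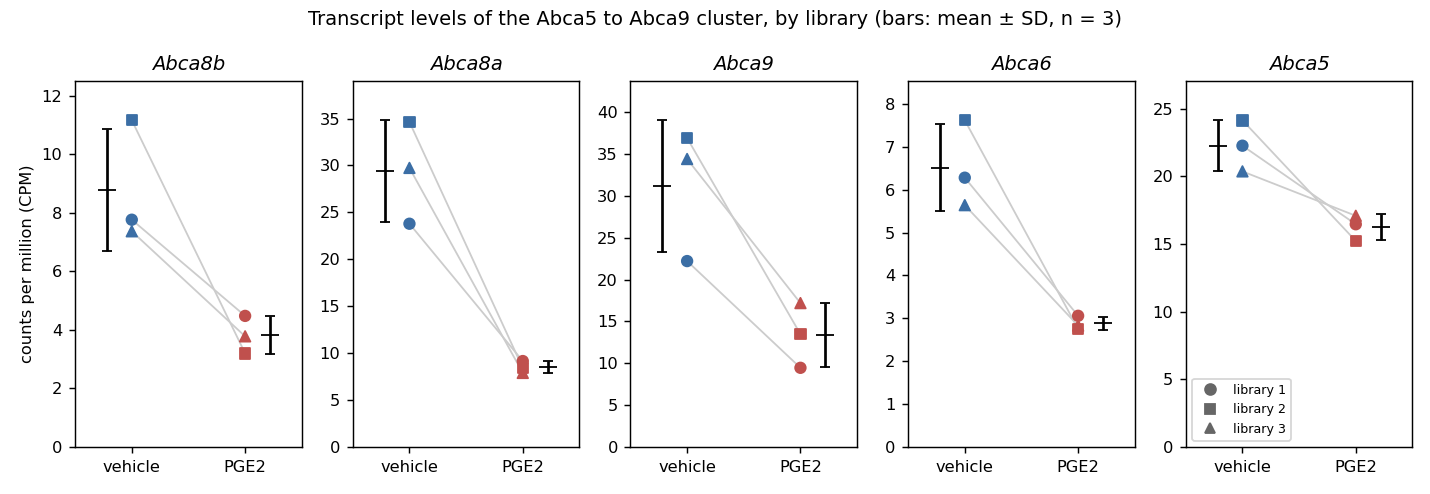
Levels of the 5 members in CPM (vertical axis, from 0), in vehicle (blue) and PGE2 (red) libraries. Marker shape gives the library number, grey lines join libraries of the same number and black bars are the mean ± SD of 3 libraries. In each panel all PGE2 points lie below all vehicle points, by 14.6 CPM in Abca8a and 3.28 CPM in Abca5.

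The groups did not overlap in 5 of 5 members, all lower with PGE2, while 12.2% of tested genes had every PGE2 library below every vehicle library. In edgeR's quasi-likelihood fit over all genes, with Benjamini-Hochberg adjustment, Abca8a and Abca6 passed the threshold of 0.05, 2 of 5 members against 0.132% of tested genes called lower. Adding the replicate number as a block term called all 5 lower, with 7.51% of tested genes called lower; that the numbers pair the libraries rests on the data, not the labels, and numbers 2 and 3 could also be swapped. DESeq2, without the block, also called all 5, with 3.21%. The members' median log2 fold change was -1.19, beside -0.001 over all tested genes. These counts rest on the contrast the members were chosen on. The unblocked calls were also fragile: 0 members and 0 of all genes passed when library 2 or 3 of either group was left out. All 5 members had an unadjusted edgeR p under 0.05 each time, but the share of all tested genes at that p is not at hand. Abca8a passed without vehicle library 1 (0.116% of tested genes called lower), and Abca8a and Abca6 passed without PGE2 library 1 (0.229%).

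Log2 fold changes went with transcript length over the tested genes, and the cause of this trend was not tested. The correction given below takes out such a trend whatever its cause. All 5 members fall in the longest of 5 groups of tested genes by length of the longest transcript, from 5126 bases up, and the median log2 fold change ran from 0.16 in the shortest group to -0.18 in the longest, where 77.5% of 3016 genes were negative. Within that longest group, 0.199% of genes had a lower value than Abca8a, between 1.19 and 1.56% than Abca9, Abca8b and Abca6, and 15.1% than Abca5. With a correction for length in each library, Abca8a was at -1.67 ± 0.153, Abca9 at -1.09 ± 0.272, Abca6 at -1.07 ± 0.146 and Abca8b at -1.0 ± 0.191. Abca5, the member with the longest transcript at 8231 bases, went to -0.25 ± 0.070. Its log2 difference thus went from -0.45 to -0.25, while those of the other members moved by less in proportion. Abca8a was then the 1 member called unblocked (0.0395% of tested genes called lower), and all 5 were called with the block and the correction together (7.97%).

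**Figure D2:**
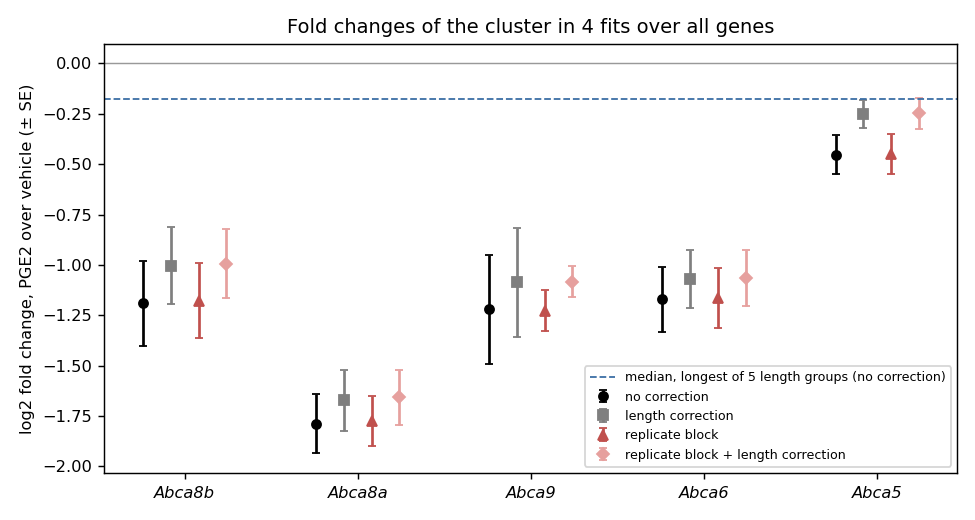
Log2 fold changes of the members (vertical axis, PGE2 over vehicle, ± standard error) in 4 fits over all genes, with or without the replicate block and the length correction. The dashed line is the median of the longest length group before the correction, -0.18, which the correction moves to -0.0146. Abca5 lies highest in all 4 fits, at -0.45 without and -0.25 with the correction, and Abca8a lowest, at -1.79 and -1.67.

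Per length of transcript, the order of the members shifted. In vehicle libraries, Abca8a had 5.23 ± 0.967 and Abca9 4.88 ± 1.23 CPM per kilobase, and their libraries overlapped. Abca5 came next at 2.70 ± 0.229, below every library of the first pair. Abca6 at 1.24 ± 0.193 and Abca8b at 1.18 ± 0.281 formed a lowest pair whose libraries overlapped. The vehicle level of Abca8a exceeded that of 47.7% of tested genes with a known length, and that of Abca8b exceeded 23.8%, so these were genes of middling to low abundance.

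With PGE2, Abca9 stood at 2.09 ± 0.606 and Abca5 at 1.97 ± 0.115 CPM per kilobase, and these overlapped. Abca8a came next, after being highest with vehicle, at 1.51 ± 0.113, below every Abca5 library but overlapping those of Abca9. Abca6 (0.55 ± 0.030) and Abca8b (0.515 ± 0.086) stayed last and overlapped. With the length of all merged exons in place of the longest transcript, the order of means was the same in both groups, but the PGE2 libraries of Abca5 and Abca8a then overlapped.

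Ratios within a library, which do not depend on scaling between libraries, show that the members did not differ by like amounts. The log2 ratio of Abca5 to Abca8a was -0.10, -0.52 and -0.55 in vehicle libraries and 0.85, 0.85 and 1.11 in PGE2 libraries. Per length of the longest transcript as well, Abca8a lay above Abca5 in each vehicle library and below it in each PGE2 library. Per length of merged exons this turned in PGE2 libraries 1 and 2, where Abca8a lay slightly above Abca5 (1.46 against 1.44 and 1.34 against 1.33 CPM per kilobase). The log2 ratio of Abca8a to Abca8b, the closest relatives, was 1.61, 1.63 and 2.01 with vehicle and 1.03, 1.40 and 1.06 with PGE2. That of Abca6 to Abca8a also separated the groups, at -2.17 ± 0.239 and -1.56 ± 0.069. So did those of Abca5 to Abca6 (1.78 ± 0.102 and 2.50 ± 0.087) and of Abca5 to Abca8b (1.37 ± 0.221 and 2.10 ± 0.198). Abca5 to Abca9 overlapped. Abca6, Abca8b and Abca9 kept their proportions more closely: the mean log2 ratio of Abca6 to Abca8b was -0.42 with vehicle and -0.40 with PGE2, and that of Abca8b to Abca9 was -1.82 and -1.78, with overlapping libraries. Abca8a to Abca9 ran from 0.10 to -0.21 with vehicle and from -0.05 to -1.12 with PGE2, and overlapped.

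**Figure D3:**
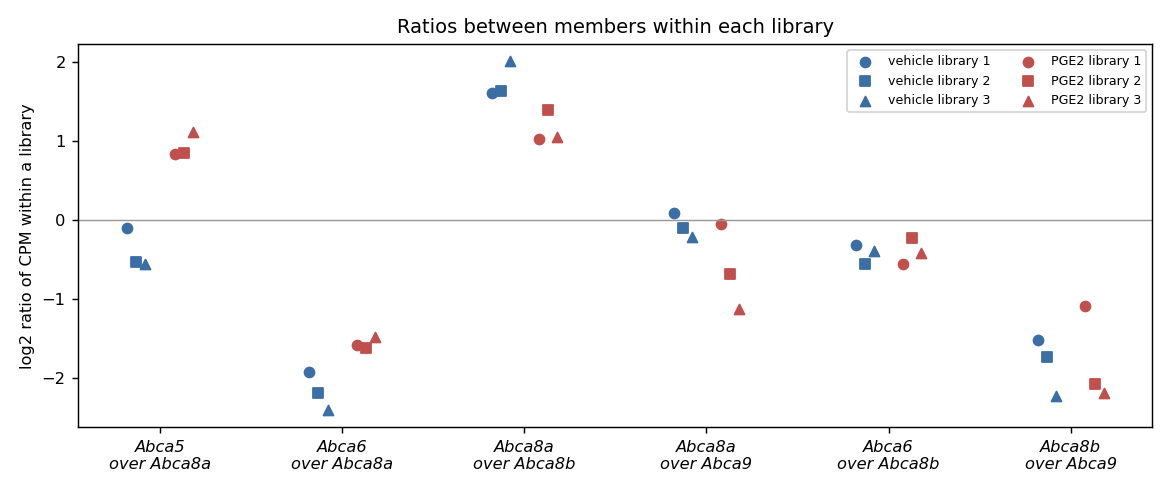
Log2 ratio of CPM between 2 members within each library (vertical axis), for vehicle (blue) and PGE2 (red), with marker shape giving the library number. The ratios between Abca8a and each of Abca5, Abca6 and Abca8b separate the groups, while Abca8a over Abca9, Abca6 over Abca8b and Abca8b over Abca9 overlap. Abca5 over Abca6 and Abca5 over Abca8b, which also separate the groups, are not drawn.

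Across the 6 libraries, log2 CPM of the members correlated with Pearson coefficients from 0.817 (Abca8b and Abca9) to 0.983 (Abca6 and Abca8b). These libraries share 2 groups, so the coefficients largely restate the group difference. Of 10684 tested genes that averaged 5 CPM or more, those most like Abca8a in this measure were Isoc1 (0.994), Ptpdc1 (0.992), Fgd4 (0.991), Tsc1 (0.991) and Smpd3 (0.989). Tsc1 is a restraint on the growth kinase mTORC1, Fgd4 activates the GTPase Cdc42, and Smpd3 is a neutral sphingomyelinase. Their differences were smaller: the log2 fold change was -0.25 for Isoc1, -0.40 for Ptpdc1, -0.38 for Tsc1, -0.65 for Fgd4 and -1.10 for Smpd3. Likeness in this measure thus does not mean differences of like size. Abca8b ranked 60, Abca5 146 and Abca9 364 by this measure, and Abca6 has a mean below 5 CPM.

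Genes beside the cluster were taken by position, within 1 Mb of its outer ends, and not by their values. There were 31, of which 13 passed the filter on low counts, and 0 were called by edgeR in either direction, with 1 at an unadjusted p under 0.05 and 0.342% of all tested genes called. DESeq2 called 1, Gna13 (6.04% of all genes with an adjusted p), and their median log2 fold change was -0.03. The nearest tested gene on the Abca5 side is Map2k6, the kinase that activates p38, 61.4 kb away. Map2k6 was at 10.1, 9.18 and 7.93 CPM with vehicle and at 9.22, 6.42 and 6.23 CPM with PGE2, and its groups overlapped (-0.32 ± 0.185). On that side the potassium channel gene Kcnj2 had a log2 fold change of 0.65 ± 0.332, with overlapping groups, and Kcnj16 had 1 count in all 6 libraries.

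On the Abca8b side the nearest protein-coding gene, 1700012B07Rik, had at most 3 counts in a library. Fam20a, which codes for a pseudokinase of the secretory pathway, was at 26.6, 35.8 and 44.2 CPM with vehicle and 41.1, 47.7 and 63.2 CPM with PGE2, higher in each same-numbered library although the groups overlapped (0.51 ± 0.225). Prkar1a codes for a regulatory subunit of protein kinase A, the enzyme that cyclic AMP releases. It was at 608 CPM with vehicle and 656 CPM with PGE2 on average, with a log2 fold change of 0.11 ± 0.079. Every PGE2 library lay above every vehicle library, but the share of tested genes of which this holds is not at hand. Gna13 (-0.40 ± 0.106), Arsg (-0.26 ± 0.143) and Rgs9 (-0.64 ± 0.295) had every PGE2 library below every vehicle library, as did 12.2% of all tested genes. Rgs9 rests on 10 to 26 counts per library. Groups of the other tested neighbours overlapped. In the fit with the block, which called 14.4% of tested genes in either direction, Fam20a rose (edgeR adjusted p = 0.00238) and Gna13, a G protein subunit, fell (-0.39, edgeR adjusted p = 0.0213). With the length correction added, Kcnj2 also rose and Map2k6 fell, 4 of 13 in all, with 16.8% of tested genes called.

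**Figure D4:**
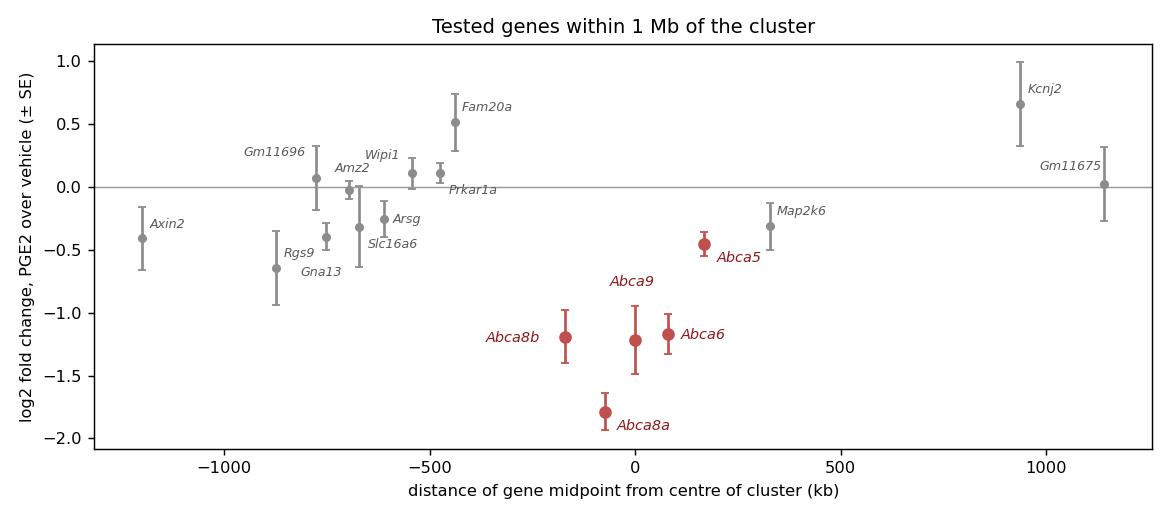
Log2 fold change (vertical axis, PGE2 over vehicle, ± standard error) of the members (red) and of the 13 tested genes within 1 Mb (grey), against the distance of each gene's midpoint from the centre of the cluster in kb. The 4 members Abca8b, Abca8a, Abca9 and Abca6 lie below -1, and the grey points lie between -0.64 for Rgs9 and 0.65 for Kcnj2.

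Other ABCA genes lie elsewhere in the genome. Of the 11 listed, 5 passed the filter and 0 were called by edgeR, with 1 at an unadjusted p under 0.05 and 0 called by DESeq2, the block or the length correction. Abca1 was at 76.3, 108 and 69.6 CPM with vehicle and at 47.0, 58.0 and 74.9 CPM with PGE2. Its groups overlapped through PGE2 library 3, and its log2 fold change was -0.49 ± 0.221, or -0.25 with the length correction. Abca7, which takes part in lipid handling by phagocytes, was at 32.9 and 31.6 CPM on average (-0.06 ± 0.152). Abca2, of myelin and brain, and Abca3, the surfactant lipid transporter of the lung, were at -0.18 ± 0.117 and -0.21 ± 0.116, with overlapping groups. Abca4, the retinoid lipid transporter of photoreceptors, was lower in each PGE2 library, at -1.06 ± 0.421, but from only 9 to 33 counts per library. Abca12, Abca13, Abca14, Abca15, Abca16 and Abca17 had at most 6 counts in any library.

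Of 37 genes from the other ABC subfamilies, 26 were tested and 0 were called by edgeR (1 at an unadjusted p under 0.05), with a median log2 fold change of -0.02. The gene at an unadjusted p under 0.05 was Tap1, which loads peptides for antigen presentation. It was at 56.7, 47.6 and 50.5 CPM with vehicle and 32.2, 36.2 and 34.8 CPM with PGE2. Its log2 fold change was -0.59 ± 0.089 (edgeR adjusted p = 0.0534), it was the 1 gene of this list called by DESeq2, and with the block it fell (edgeR adjusted p = 0.00293). The drug transporter Abcg2 stood at -0.02 ± 0.091 and the multidrug transporter Abcc1 at -0.02 ± 0.193. Abcg1, which works beside Abca1 in sterol efflux, was at -0.45 ± 0.376.

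**Figure D5:**
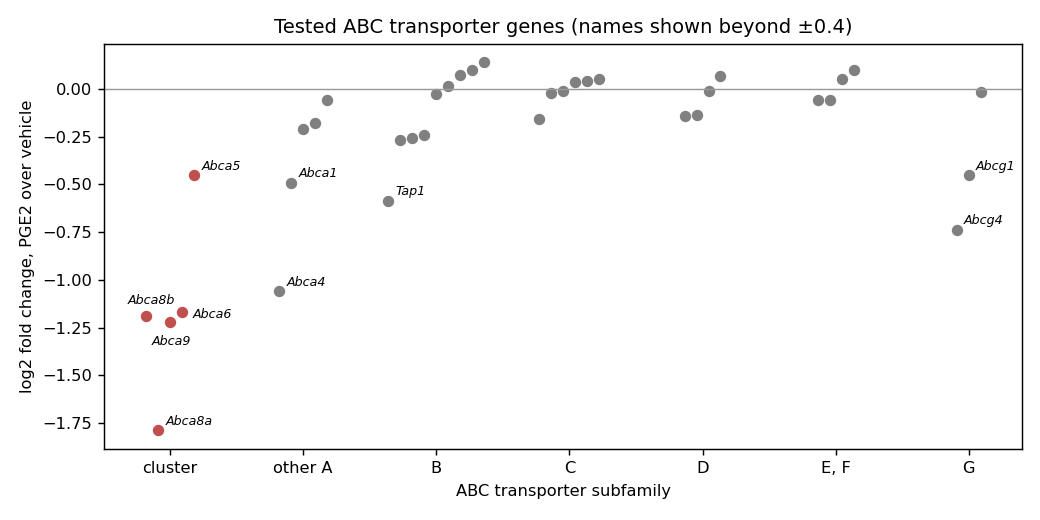
Log2 fold change (vertical axis, PGE2 over vehicle) of tested ABC transporter genes by subfamily, with the members of the cluster in red and others in grey. Apart from Abca4 at -1.06, no grey point lies below -0.74, the value of Abcg4, whereas 4 of the 5 members lie below -1.

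A pair of lists of sterol genes were read in the same fits. Of 16 genes of sterol efflux and the liver X receptor response, which include Abca1 and Abcg1, 16 were tested and 0 were called by edgeR (1 at an unadjusted p under 0.05) or by DESeq2. With the block, 3 of the 16 were called, beside 14.4% of all tested genes: Apoe, the lipid-carrying apolipoprotein, fell (-0.53, edgeR adjusted p = 0.00471), as did Pltp (-0.40), and Mylip, a ubiquitin ligase gene that liver X receptors switch on, rose (0.32). The genes of both liver X receptors, Nr1h3 at 0.05 ± 0.122 and Nr1h2 at 0.20 ± 0.066, passed neither without nor with the block. Of 12 genes of sterol synthesis and uptake, 0 were called by edgeR (1 at an unadjusted p under 0.05) or by DESeq2. With the block 2 of the 12 were called, again beside 14.4% of all tested genes, and Stard4, a carrier of cholesterol, fell (-0.28). With the length correction added, which called 16.8% of tested genes, Hmgcs1, an enzyme of sterol synthesis, fell (-0.23) and Stard4 did not pass. Medians of these lists were -0.03 and -0.04, beside -0.001 for all tested genes.

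Summed markers of Schwann cells and of leukocytes did not overlap between the groups. Over 5 Schwann cell markers, the sum was 6.91 to 8.09 CPM with vehicle and 4.24 to 5.10 CPM with PGE2, with Sox10 at 0 in every library. Of 6 macrophage and leukocyte markers 5 were in the table, and their sum was 8.57 to 9.22 CPM with vehicle and 11.5 to 12.3 CPM with PGE2, with Ptprc at 0 in every library. The sum of 10 myogenic markers was 60.6 to 246 CPM and 29.2 to 177 CPM, that of 6 pericyte markers 72.9 to 121 and 56.2 to 87.1 CPM, that of 6 endothelial markers 21.2 to 47.0 and 19.0 to 33.3 CPM, and these overlapped. So did the sums of 7 adipocyte markers (59.4 to 105 and 52.4 to 93.7 CPM) and of 4 tendon markers (12.1 to 25.6 and 10.8 to 21.0 CPM). Between libraries of the same number, the myogenic, pericyte, endothelial and tendon sums were lower with PGE2 in 3 of 3 pairs. That the numbers pair the libraries rests on the data, not the labels, and the share of all genes lower in each pair is not at hand. Single markers within these lists went both ways, with Tnmd of the tendon list higher in each pair. The myogenic sum was at 246 and 177 CPM in library 1, 83.4 and 29.7 CPM in library 2 and 60.6 and 29.2 CPM in library 3. With the block, 5 of 8 tested myogenic markers and 3 of 6 pericyte markers fell, beside 7.51% of all tested genes. So did 4 of 5 tested adipocyte, 2 of 3 Schwann, 1 of 4 endothelial and 1 of 4 tendon markers. The other adipocyte marker, Fabp4, rose, as did 2 of 3 tested leukocyte markers, where 14.4% of tested genes were called in either direction. Without the block, Adipoq (-1.03) and Cfd (-1.42) were lower in every PGE2 library, although the adipocyte sums overlapped. Their part in the values of the cluster was not tested.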

How the data were processed

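Polyadenylated RNA of 6 libraries, 3 per group, was sequenced. The authors deposited whole-number counts per gene, 1 column per library, with an Ensembl identifier and symbol. Per the submitters' processing notes reads were placed on mm10; aligner, counter, strand setting and annotation were not given in the sources used. Chi-square over its degrees of freedom was 20.7 to 101 between libraries of a group, so no library was a copy of another in its group. Each was counted as its own sample, although this does not show that they stem from separate mice or cultures. A count of 3 equalled 0.0569 to 0.143 CPM.

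Members, lists, tests and the rule for named genes were chosen with earlier results of these data known. That rule took all members, the 3 nearest protein-coding genes on each side, tested genes of the other ABCA list, the genes called (otherwise up to 4 with the smallest adjusted p) of other lists, and the 5 genes most like Abca8a. Further genes named as examples were chosen after their values were seen.

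Counts were tested with edgeR 4.0.16 in R 4.3.3 (filterByExpr, TMM scaling, robust quasi-likelihood fit, Benjamini-Hochberg over 15186 genes). Standard errors are the fold change over the square root of F. The length correction added a lowess trend on longest transcript length (span 0.3) per library to the offset. Log2 CPM used a prior count of 2. Same-numbered libraries deviated together from their group means, with correlations of 0.621, 0.169 and 0.422, all above the limit of 0.1, so the block is given beside the unblocked fit. This rests on the data, not the labels, and a swap of numbers 2 and 3 would pass the same limit, with 0.252 for vehicle library 3 and PGE2 library 2 and 0.145 for vehicle library 2 and PGE2 library 3. DESeq2 1.42.0, other scalings and filters and each library left out were alternatives. For counts at an unadjusted p under 0.05, the share of all tested genes is not at hand. Positions and lengths are from GENCODE M21 of GRCm38, and coding sequences were aligned with MAFFT 7.526. A few genes of the sterol list and 1 stretch of sequence are not reported here.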

Additional observations from a re-analysis of the deposited data

How the results depend on the processing

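All 5 members kept a negative log2 fold change under every alternative run. Every PGE2 library lay below every vehicle library in each member, so leaving out 1 library could hardly change the sign. The members were also chosen on this contrast. With 1 library left out it ranged from -1.93 to -1.66 for Abca8a, -1.44 to -1.02 for Abca9, -1.27 to -1.05 for Abca6, -1.32 to -0.99 for Abca8b and -0.52 to -0.39 for Abca5. Calls were less stable. Against 2 members and 52 genes called by edgeR without a block, the replicate block called 5 and 2189, the block with the length correction 5 and 2549, the length correction alone 1 and 15, and DESeq2 5 and 829. Without a filter on low counts 285 genes were called. Leaving out 1 library gave 0 to 2 members and 0 to 120 genes. The count of neighbours called was 2 with the block, 4 with the block and length correction and 1 with DESeq2, against 0. Of the other ABC subfamilies 1 gene, Tap1, was called with the block, the block and length correction, library totals alone, no filter or DESeq2. The block called 3 sterol efflux genes and 2 sterol synthesis genes, with or without the length correction, against 0 and 0, beside 16.8 and 14.4% of all tested genes. The causes of these shifts were not tested. With merged exons the vehicle level of Abca5 was 1.95 CPM per kilobase in place of 2.70. Abca6 rests on 104 to 270 counts per library and Abca4 on 9 to 33, which limits their precision.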
